A study of Homo sapiens with 8 samples.

Results

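Azurophil granules, also called primary granules, are the microbicidal storage granules that neutrophil precursors build at the promyelocyte stage, the stage at which acute promyelocytic leukaemia cells are arrested. The genes described here are 10 of the 37526 gene names listed for all 8 libraries and were listed by name, with earlier results of these data known: myeloperoxidase (MPO), neutrophil elastase (ELANE), proteinase 3 (PRTN3), azurocidin (AZU1), cathepsin G (CTSG), eosinophil-derived neurotoxin (RNASE2), eosinophil cationic protein (RNASE3), serine protease 57 (PRSS57), lysozyme (LYZ) and serglycin (SRGN). RNA-seq counts were available for NB4 cells, a human acute promyelocytic leukaemia line that carries the PML/RARα fusion. The 4 groups of 2 libraries were untreated cells transduced with the control vector (shNC, scramble), untreated cells with a short hairpin RNA against the histone H3K9 demethylase KDM3B (shKDM3B), and the same kinds of cells given 1 µM all-trans retinoic acid (scramble+ATRA and shKDM3B+ATRA). All 4 groups carry a stably integrated, puromycin-selected lentiviral vector. The study describes the control as a scrambled hairpin and the labels as an empty vector, and it is called scramble here. Which of the KDM3B hairpins was sequenced is not given in the sources used here, and neither is whether a given ATRA library was treated for 24 or 48 h.

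In normal marrow, transcription of the granule protein genes is switched on in early promyelocytes by factors such as PU.1, C/EBPα, RUNX1 and MYB and is switched off as the cells mature, while the proteins persist in the granules. MPO makes hypochlorous acid, ELANE, PRTN3, CTSG and PRSS57 are serine proteases of related structure, AZU1 is a protease homologue without enzymatic activity, LYZ cleaves bacterial cell walls, RNASE2 and RNASE3 are cationic ribonucleases most abundant in eosinophils, and SRGN is the proteoglycan core that packs cationic proteins into granules. ATRA releases the differentiation arrest of NB4 cells, so the comparisons ask how the promyelocyte granule programme stood before and after that release and whether lowering KDM3B moved it.

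The libraries held between 9708739 and 33017787 counts on genes. Levels are given as CPM, the count of a gene relative to the size of its library after scaling by the trimmed mean of M values (TMM) over the 8 libraries. KDM3B was present at 186 and 189 CPM in scramble, 75.1 and 89.1 in shKDM3B, 194 and 120 in scramble+ATRA and 52.8 and 57.1 in shKDM3B+ATRA, so every knockdown library lay below every scramble library. The share of uniquely aligned read pairs that fell outside annotated genes was 8.49% to 9.62% in 5 libraries, and 50.0% in the second scramble+ATRA library and 51.4% and 51.0% in the shKDM3B+ATRA libraries. Within the scramble+ATRA group this share therefore differs, and values are given with each of its libraries left out where that changes a call. In shKDM3B cells ATRA and the high share cannot be told apart. The untreated and ATRA libraries also come with different lists of gene names, 56470 and 56609, of which 37526 are shared. ATRA and this difference cannot be told apart in either kind of cell. The myeloid marker CD33 was found in every group, erythroid markers were at 0 to 0.742 CPM in sum and the lymphoid markers at 2.09 to 8.50 CPM in sum.

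The upstream sequences of 4 genes are shown because these genes gave the largest changes with ATRA (CTSG, PRSS57) or are a duplicated pair (RNASE2, RNASE3), of which RNASE2 was called with knockdown. They are RefSeq sequence on GRCh38.p14, 5′ to 3′ on the strand of the gene, that end at the base before the transcript start; the RefSeq table held 6 of the 10 genes, and MPO, ELANE, LYZ and SRGN were not among them. The windows are chr14:24576251-24576500 (CTSG, minus strand), chr19:695499-695702 (PRSS57, minus strand, without the 46 bases that GENCODE counts as part of the gene), chr14:20955237-20955486 (RNASE2, plus strand) and chr14:20891135-20891384 (RNASE3, plus strand). Capitals mark the letters of a searched motif on either strand.
CTSG: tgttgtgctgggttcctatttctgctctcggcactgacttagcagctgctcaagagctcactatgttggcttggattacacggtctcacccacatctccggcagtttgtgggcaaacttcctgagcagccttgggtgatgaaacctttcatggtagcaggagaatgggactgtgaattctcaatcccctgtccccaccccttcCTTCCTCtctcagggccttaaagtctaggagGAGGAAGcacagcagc
PRSS57: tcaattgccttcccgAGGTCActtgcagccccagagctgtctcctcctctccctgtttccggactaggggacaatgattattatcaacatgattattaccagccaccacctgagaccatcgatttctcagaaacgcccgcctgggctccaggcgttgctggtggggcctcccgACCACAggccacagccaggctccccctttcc
RNASE2: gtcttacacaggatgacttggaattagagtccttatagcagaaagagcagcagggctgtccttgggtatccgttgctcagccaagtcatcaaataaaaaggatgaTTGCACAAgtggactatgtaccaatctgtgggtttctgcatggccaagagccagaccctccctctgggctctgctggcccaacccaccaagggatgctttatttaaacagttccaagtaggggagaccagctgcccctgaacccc
RNASE3: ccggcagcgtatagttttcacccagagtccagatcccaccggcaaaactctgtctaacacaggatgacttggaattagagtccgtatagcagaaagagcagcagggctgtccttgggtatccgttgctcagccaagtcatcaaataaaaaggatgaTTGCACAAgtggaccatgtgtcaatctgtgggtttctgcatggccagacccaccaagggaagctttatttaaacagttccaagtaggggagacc

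The PU.1-type letters GAGGAAG occurred in the CTSG window at -47 to -41, as the reverse complement, and at -16 to -10, counted from the transcript start. These letters stood in 13.6% of the 35116 promoter windows of 300 bases in the RefSeq table and in 2 of the 6 windows of granule genes, the other being PRTN3. The C/EBP-type letters TTGCNNAA stood in 10.5% of all windows and in 4 of the 6, those of AZU1, PRTN3, RNASE2 (-145 to -138) and RNASE3 (-94 to -87). RNASE2 and RNASE3 share an unbroken run of 86 upstream bases that holds this match, at a different distance from the start. PRSS57 held the RUNX-type letters TGTGGT (13.1% of all windows) and the retinoic acid receptor half-site AGGTCA (13.8% of all windows), the latter at -235 to -230. The MYB-type letters TAACNG, found in 20.8% of all windows, were in none of the 6. None of the searched motifs overlapped another in the printed windows, and a match of letters describes the sequence only.

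In untreated scramble cells SRGN and MPO were among the most abundant transcripts of the cell. Per kilobase of exon, SRGN stood at 1672 ± 13.5 CPM per kb (SD, n = 2) and MPO at 1088 ± 180, which placed them 13th and 18th of the 34776 genes with a length. RNASE2 followed at 247 ± 1.25, CTSG at 80.2 ± 6.15 and PRSS57 at 42.0 ± 3.33. LYZ stood at 21.7 ± 0.904 and RNASE3 at 8.57 ± 0.160 CPM per kb. Each of these 7 genes was separated from its neighbour in the order by more than the range of its libraries, whereas PRTN3, AZU1 and ELANE lay below 1 CPM per kb and overlapped. In shKDM3B cells SRGN and MPO overlapped at 2089 ± 78.8 and 2038 ± 262 CPM per kb. Per kilobase of the canonical transcript their means there were 2089 and 2806, so their order depends on the length used. With ATRA, CTSG moved from 4th to 6th place in scramble and to 7th place in shKDM3B, below RNASE3 in the latter. Per kilobase of the canonical transcript, CTSG lay above RNASE3 in shKDM3B+ATRA, at means of 2.03 and 1.82. In shKDM3B+ATRA, PRSS57 and LYZ overlapped at 8.70 ± 0.631 and 7.34 ± 1.34 CPM per kb.

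Whether the near absence of ELANE, PRTN3 and AZU1 is low expression cannot be told from these counts. ELANE (chr19:851014-856247) had 1 and 1 counts in scramble, 7 and 2 in shKDM3B and 0 in each ATRA library. PRTN3 (chr19:840999-848175) had 1 and 24, 12 and 20, 0 and 8, and 11 and 4 counts in scramble, shKDM3B, scramble+ATRA and shKDM3B+ATRA. AZU1 (chr19:825097-832018) had 1 and 10, 12 and 17, 2 and 2, and 14 and 3 counts in the same order. All 3 genes form a cluster on chromosome 19, and every run of 31 bases in the exons of their canonical transcripts was also found on the alternate contig chr19_KI270868v1_alt of hg38. Of the other 7 genes, LYZ had 18.7% of its 31-base runs on alternate contigs and the rest 0%. HTSeq leaves out read pairs with several alignments, which made up 13.0% to 16.0% of the pairs per library; whether the alignment index held the alternate contigs is not given in the sources used here and was not tested.

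Most other genes with such copies had low counts as well. The 442 protein-coding genes with all of their 31-base runs on alternate contigs had a median mean count of 0 over the 8 libraries, and 5.88% of them reached a mean of 100 counts and none a mean of 1000. Of the 13765 genes with under 1% of such runs, 47.3% reached 100 and 22.2% reached 1000 counts, with a median of 61.4. The sets were not matched for expression in these cells. Genes used by most cells, picked after their values were seen, varied: SCAMP3 and CLK2 had 0 or 1 counts, while the ribosomal protein gene RPS9 had 74 to 206, the proteasome subunit gene PSMB3 42 to 473 and YWHAE 159 to 1534. Next to the cluster, complement factor D (CFD), with 100% of its runs on the same contig, had 0 to 17 counts, while PTBP1, with 0%, had 4540 to 22283. ELANE, PRTN3 and AZU1 are therefore listed below by whether they entered a fit, and no change is drawn from them.

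Together the 10 genes took 0.676% and 0.782% of the counts in scramble, 1.12% and 1.22% in shKDM3B, 0.277% and 0.396% in scramble+ATRA and 0.719% and 0.681% in shKDM3B+ATRA. Both knockdown groups lay above the matching scramble group without overlap. MPO supplied 64.0% to 76.8% of these counts in the untreated libraries, 25.4% and 14.5% in scramble+ATRA and 42.5% and 31.4% in shKDM3B+ATRA. SRGN supplied most of the rest and was the larger of the pair in all 4 ATRA libraries, as the stacked shares show.

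**Figure D1:**
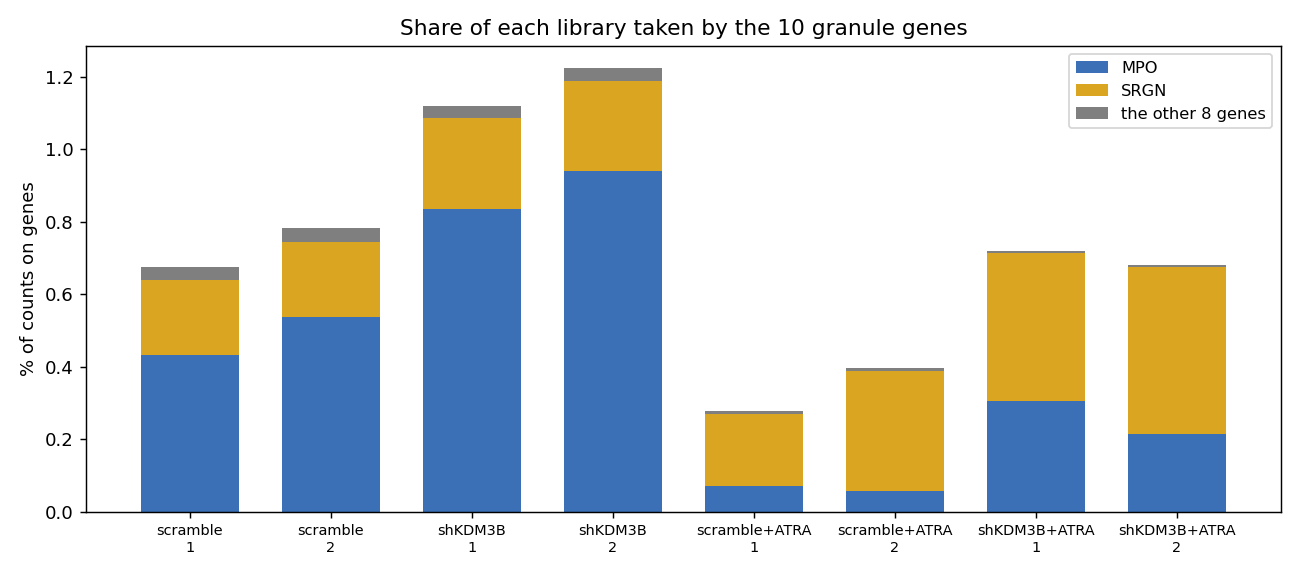
Percentage of all counts on genes taken by MPO, SRGN and the other 8 granule genes in each of the 8 libraries. The MPO segment was largest in shKDM3B and smallest in scramble+ATRA, where SRGN made up 71.7% and 83.5% of the granule gene counts.

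The first comparison asked what lowering KDM3B did in untreated cells. A gene was called at an unadjusted P under 0.05 with a fold change of at least 1.5 in edgeR's quasi-likelihood test, the thresholds of the study's methods, and Benjamini-Hochberg adjusted p-values over all genes of a fit are given beside it. MPO was called higher and RNASE2 lower among the 9 granule genes tested, ELANE being too low to test. All genes gave 3.48% called higher and 3.53% called lower of 13855, and 0.0217% (3 genes) at an adjusted p under 0.05 in edgeR, none of them a granule gene. By DESeq2 the adjusted p was 0.000524 for MPO and 0.0104 for RNASE2. PRTN3 and AZU1 were tested and not called, and both were called higher only without the second scramble library (log2 3.49 and 3.37). The median log2 fold change was 0.31 over the granule genes tested and 0.00 over all genes.

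MPO (chr17:58269855-58280935, 12 exons) stood at 4251 and 5380 CPM in scramble and at 8202 and 9845 in shKDM3B. Both knockdown libraries were above both scramble libraries, a 1.85-fold difference (log2 fold change 0.89, SE 0.15, edgeR, Benjamini-Hochberg adjusted p = 0.105). The call held in each of the 4 fits that left out a library, with log2 values of 0.74 to 1.06. MPO is the enzyme by which promyelocytes are recognised in routine cytochemistry.

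RNASE2 (chr14:20955487-20956436) went the other way, with 177 and 179 CPM in scramble and 85.2 and 123 in shKDM3B. The groups did not overlap, and the knockdown level was 1.73-fold lower (log2 fold change -0.79, SE 0.18, edgeR, Benjamini-Hochberg adjusted p = 0.162), but without the first shKDM3B library the value was -0.58 and no longer called. Its neighbour and duplicate RNASE3 (chr14:20891385-20892348) had 6.38 and 6.21 CPM in scramble and 6.22 and 5.71 in shKDM3B, overlapping groups. The transcripts are 86.4% identical over 737 aligned columns and share a longest run of 67 bases, and 12.5% of the 31-base runs of RNASE2 are in RNASE3, so the counting can lose or split some of their reads.

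Of the eosinophil and basophil markers, 3 of 6 tested were called lower with knockdown in untreated cells and 1 of 5 under ATRA, and none higher, beside 3.53% and 4.37% called lower over all genes. The summed level of the 7 markers was 351 to 623 CPM in scramble, 174 to 314 in shKDM3B, 38.8 to 59.3 in scramble+ATRA and 6.57 to 19.6 in shKDM3B+ATRA, and eosinophil peroxidase (EPX), histidine decarboxylase (HDC) and GATA1 were called lower with knockdown in untreated cells, at log2 values of -1.18, -0.91 and -2.00 (Benjamini-Hochberg adjusted p = 0.227, 0.352 and 0.111). The other 3 of 6 tested, PRG2 (-0.19), MS4A2 (-0.35) and CPA3 (-0.54), were not called. With knockdown under ATRA GATA1 was called lower of 5 tested (log2 -2.83, edgeR, Benjamini-Hochberg adjusted p = 0.502), and PRG2 (-1.43), EPX (-1.79), CLC (-1.97) and HDC (-2.04) were not called. CPA3, too low to test there, had 0.423 and 0.0914 CPM in scramble+ATRA and 0.530 and 0.400 in shKDM3B+ATRA. With ATRA 4 of 7 were called lower in scramble and 5 of 6 in shKDM3B, beside 10.8% and 18.3% over all genes, while CLC, the Charcot-Leyden crystal protein gene, was called higher in both (log2 5.51 and 4.97, edgeR, Benjamini-Hochberg adjusted p = 0.00471 and 8.22e-05). No marker of this list was at or below 3 counts in both libraries of an untreated group, and MS4A2 was so in both ATRA groups. Their part in the RNASE2 result was not tested, and in bulk samples fewer cells of a type and less RNA per cell cannot be told apart. EPX is the paralogue of MPO in the same cluster on chromosome 17, and its levels of 144 and 284 CPM in scramble and 70.8 and 120 in shKDM3B lay opposite to those of MPO. The monocyte markers summed to 36.3 to 37.6 CPM in scramble, 16.9 to 30.0 in shKDM3B, 42.9 to 96.1 in scramble+ATRA and 11.5 to 19.7 in shKDM3B+ATRA, with VCAN at or below 3 counts in both libraries of each scramble group. With knockdown, CSF1R (-0.78) and FCN1 (-0.66) were called lower of 2 tested in untreated cells, beside 3.53% over all genes. Under ATRA FCN1 (-2.45) was called lower of 2, beside 4.37%, and CSF1R (-0.95) was not called. Their Benjamini-Hochberg adjusted p-values by edgeR were 0.438 or higher.

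PRSS57 (chr19:685546-695498) stood at 43.2 and 48.3 CPM in scramble and 59.8 and 69.7 in shKDM3B. The groups did not overlap, and the log2 fold change of 0.49 (SE 0.16, edgeR, Benjamini-Hochberg adjusted p = 0.329) was under the fold threshold. SRGN (chr10:69088103-69104805) was likewise separated, with 2023 and 2046 CPM in scramble and 2475 and 2610 in shKDM3B, at a log2 fold change of 0.31 (Benjamini-Hochberg adjusted p = 0.452 by edgeR). CTSG (chr14:24573518-24576250) had 104 and 116 CPM in scramble and 146 and 131 in shKDM3B, and missed the P threshold. LYZ (chr12:69348381-69354234) had 36.4 and 38.6 against 25.5 and 37.1 CPM, overlapping groups; 34.7% of its exon length overlaps a gene on the opposite strand, and the strand setting of the counting is not given in the sources used here.

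The second comparison asked the same in ATRA-treated cells. MPO and PRSS57 were called higher and RNASE2 lower among the 7 granule genes tested, ELANE, PRTN3 and AZU1 being too low. All genes gave 2.42% called higher and 4.37% called lower of 14281, and 0% at a Benjamini-Hochberg adjusted p under 0.05 by edgeR, where 1383 genes had an unadjusted P under 0.05 and DESeq2 gave 464 adjusted calls. Among the adjusted DESeq2 calls were MPO and RNASE2. The median log2 fold change was 0.66 over the granule genes tested and 0.03 over all genes.

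MPO stood at 720 and 611 CPM in scramble+ATRA and at 3149 and 2208 in shKDM3B+ATRA. Both knockdown libraries lay above both scramble libraries, and the fitted difference was 3.99-fold (log2 fold change 1.99, SE 0.24, edgeR, Benjamini-Hochberg adjusted p = 0.502). It was called in all 4 fits that left out a library, and its log2 value was 2.13 against the scramble+ATRA library with the same high share of reads outside genes and 1.87 against the other.

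PRSS57 had 3.63 and 3.84 CPM in scramble+ATRA and 9.97 and 8.99 in shKDM3B+ATRA. The difference was 2.51-fold (log2 fold change 1.33, SE 0.27, edgeR, Benjamini-Hochberg adjusted p = 0.502), and the call was lost without either shKDM3B+ATRA library, at log2 values of 1.27 and 1.40. RNASE2 had 62.2 and 64.4 CPM against 23.8 and 29.8, 2.38-fold lower in the knockdown (log2 fold change -1.25, SE 0.18, edgeR, Benjamini-Hochberg adjusted p = 0.502), called in all 4 fits that left out a library. Both comparisons of knockdown with scramble thus had MPO higher and RNASE2 lower, in separate sets of libraries. The sources used here do not say that the sets came from separately transduced cells, so the comparisons are not taken as independent.

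The remaining genes did not meet the rule under ATRA in edgeR's test of these 4 libraries. SRGN had 2029 and 3515 CPM in scramble+ATRA and 4201 and 4757 in shKDM3B+ATRA, a log2 fold change of 0.68 (edgeR, Benjamini-Hochberg adjusted p = 0.558). Without the second scramble+ATRA library it was 1.12 and called, and without the first, 0.35, so this value rests on which scramble library is used. SRGN was also called by DESeq2 (0.69) and in a fit of all 8 libraries (0.68). CTSG had 4.05 and 2.29 CPM against 2.01 and 1.70, close to its lowest levels, and RNASE3 had 0.847 and 0.823 against 1.38 and 1.30, from 9 to 14 counts per library. LYZ overlapped at 11.1 and 13.2 against 11.0 and 14.3 CPM. Without the second scramble+ATRA library 5 genes were called higher and 2 lower, with SRGN, CTSG (-1.14) and the low-count PRTN3 and AZU1 in addition.

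**Figure D2:**
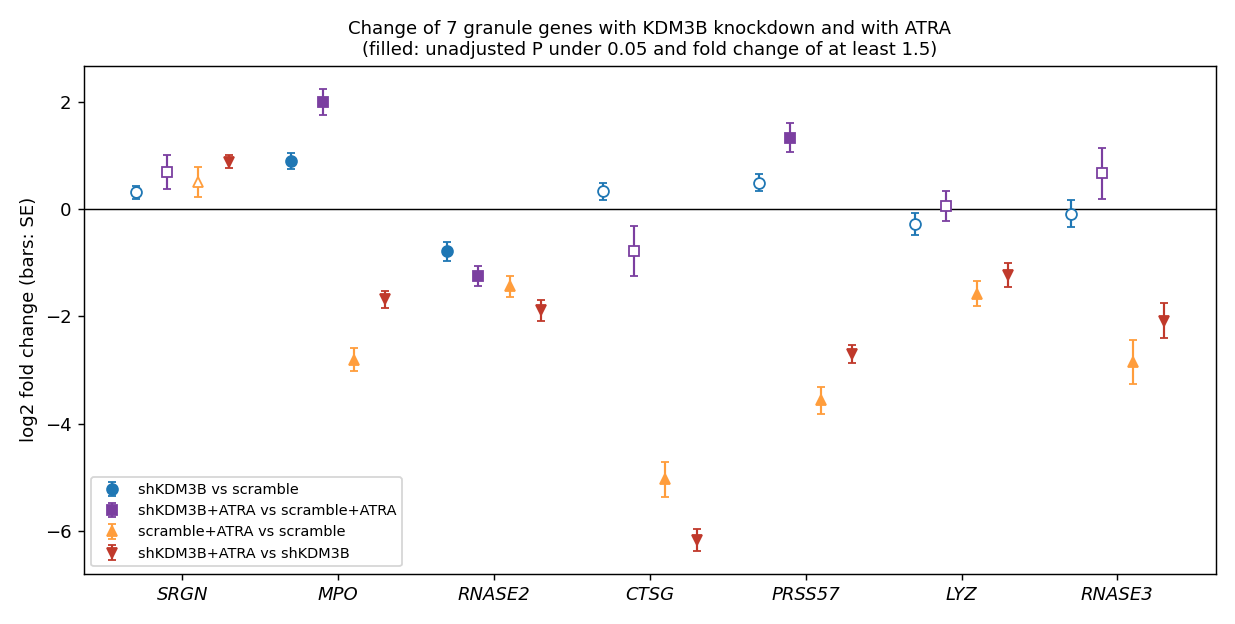
Log2 fold changes (points) with standard errors (bars) of 7 granule genes in 4 comparisons of 2 libraries against 2, filled where the gene was called. MPO was called higher in both knockdown comparisons and lower in both ATRA comparisons, RNASE2 was called lower in all 4, and CTSG had the lowest values, -5.04 and -6.16 with ATRA.

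Most of these transcripts were lower with ATRA in scramble cells. Of the 8 granule genes tested, 6 were called lower and none higher, and the same 6 had a Benjamini-Hochberg adjusted p under 0.05 by edgeR. All genes gave 10.8% called lower and 15.0% called higher of 12429, and 12.9% with an adjusted p under 0.05. ELANE and AZU1 were too low to test, and PRTN3 was tested and not called, except, as lower, without the second scramble+ATRA library (log2 -6.47). The median log2 fold change was -2.19 over the granule genes tested, -2.81 without PRTN3, and 0.02 over all genes.

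CTSG changed most, from 104 and 116 CPM to 4.05 and 2.29. That is 32.8-fold lower (log2 fold change -5.04, SE 0.33, edgeR, Benjamini-Hochberg adjusted p = 0.000257). PRSS57 fell from 43.2 and 48.3 to 3.63 and 3.84 CPM, 11.8-fold (log2 -3.57, SE 0.25, adjusted p = 0.000325 by edgeR with Benjamini-Hochberg). Both are serine proteases, and CTSG is the chymotrypsin-like member.

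RNASE3 fell from 6.38 and 6.21 to 0.847 and 0.823 CPM, 7.23-fold (edgeR, Benjamini-Hochberg adjusted p = 0.00517). MPO fell from 4251 and 5380 to 720 and 611 CPM, 6.99-fold (log2 -2.81, SE 0.21, edgeR, Benjamini-Hochberg adjusted p = 0.000415). LYZ fell 2.99-fold and RNASE2 2.72-fold (edgeR, Benjamini-Hochberg adjusted p = 0.00573 and 0.00414). For these 6 genes no ATRA library overlapped a scramble library, and each stayed called without either scramble+ATRA library, CTSG at log2 values of -5.53 and -4.73. SRGN was not called, with 2023 and 2046 CPM before and 2029 and 3515 after ATRA; without the first scramble+ATRA library its log2 value was 0.84 and called, and without the second it was 0.02.

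In shKDM3B cells the same 6 genes were called lower with ATRA and SRGN higher, all 7 tested having a Benjamini-Hochberg adjusted p under 0.05 by edgeR. ELANE, PRTN3 and AZU1 were too low to test. All genes gave 18.3% called lower and 24.0% higher of 12756, and 50.0% with an adjusted p under 0.05. The median log2 fold change was -1.89 over the granule genes tested and 0.04 over all genes. CTSG fell from 146 and 131 to 2.01 and 1.70 CPM, 71.4-fold (log2 -6.16, SE 0.21, edgeR, Benjamini-Hochberg adjusted p = 4.9e-08).

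PRSS57 fell 6.53-fold, from 59.8 and 69.7 to 9.97 and 8.99 CPM (edgeR, Benjamini-Hochberg adjusted p = 1.56e-06), and RNASE3 4.24-fold (adjusted p = 0.000627). RNASE2 fell 3.71-fold, from 85.2 and 123 to 23.8 and 29.8 CPM (edgeR, Benjamini-Hochberg adjusted p = 4.34e-05). MPO fell 3.22-fold, from 8202 and 9845 to 3149 and 2208 CPM (log2 -1.69, SE 0.16, edgeR, Benjamini-Hochberg adjusted p = 3.11e-05), so that MPO in shKDM3B+ATRA lay between untreated and treated scramble cells. LYZ fell 2.35-fold (edgeR, Benjamini-Hochberg adjusted p = 0.00141). SRGN was the exception, 1.84-fold higher at 4201 and 4757 CPM against 2475 and 2610 (log2 0.88, SE 0.12, edgeR, Benjamini-Hochberg adjusted p = 0.000226). None of the 7 calls was lost by leaving out a library.

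A further test over the 4 groups asked if shKDM3B and scramble cells differed in their ATRA response (an interaction). Of the 9 granule genes tested, MPO (1.10 on the log2 scale, SE 0.28) and PRSS57 (0.84, SE 0.21) fell less in shKDM3B cells and CTSG (-1.15, SE 0.38) fell further at an unadjusted P under 0.05, each with a Benjamini-Hochberg adjusted p of 1.00 by edgeR. All genes gave 1.27% called higher and 2.72% lower of 13528, and 0% at an adjusted p under 0.05 by edgeR, with 607 genes at an unadjusted P under 0.05 and 25 adjusted calls by DESeq2. The MPO and PRSS57 calls held in all 8 fits that left out a library, with ranges of 0.86 to 1.32 and 0.76 to 0.97. The CTSG call held in 4 of the 8. It was lost without the first scramble (-1.08), first shKDM3B (-1.02), first scramble+ATRA (-0.64) or second shKDM3B+ATRA library (-1.03). RNASE2, RNASE3, LYZ and SRGN had values of -0.47, 0.75, 0.33 and 0.37 that did not pass. SRGN was called without the second scramble+ATRA library (0.81) and stood at 0.04 without the first, and RNASE2 was called without the first shKDM3B library (-0.67). PRTN3 and AZU1 were tested and not called, and ELANE was too low to test.

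Ratios within a library show how unequal the responses were without any scaling. There were 40.9 and 46.5 MPO counts for each CTSG count in scramble, 56.0 and 75.1 in shKDM3B, 178 and 267 in scramble+ATRA and 1563 and 1300 in shKDM3B+ATRA. The ATRA values of CTSG rest on few counts, 67 and 25 in scramble+ATRA and 19 and 17 in shKDM3B+ATRA, which limits their precision. The 4 groups did not overlap in this ratio. MPO counts per RNASE2 count were 24.0 and 30.1 in scramble and 11.6 and 9.49 in scramble+ATRA, but 96.2 and 79.9 in shKDM3B and 133 and 74.2 in shKDM3B+ATRA. In this ratio both knockdown groups lay above both scramble groups.

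Other azurophil granule contents did not share the direction of the 6 genes under ATRA. Of 20 listed, 17 were tested in scramble cells, and 8 were called higher and none lower; in shKDM3B cells 8 of 16 were called higher and none lower. The shares over all genes were 15.0% higher and 10.8% lower in scramble, and 24.0% and 18.3% in shKDM3B. Bactericidal/permeability-increasing protein (BPI) stood at 0.199 and 0.211 CPM in scramble and 56.9 and 55.4 in scramble+ATRA (log2 fold change 8.09, SE 0.32, edgeR, Benjamini-Hochberg adjusted p = 8.82e-05). In shKDM3B it went from 0.101 and 0.317 to 37.7 and 37.3 CPM (7.37, adjusted p = 1.95e-07 by edgeR with Benjamini-Hochberg). The untreated BPI values rest on 2 to 10 counts per library.

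The alpha-defensins, small pore-forming peptides, were the other large risers. DEFA4 had 4.93 and 3.17 CPM in scramble and 146 and 363 in scramble+ATRA (log2 fold change 6.03, edgeR, Benjamini-Hochberg adjusted p = 0.000834), and DEFA3 had 1.30 and 1.14 against 91.0 and 256. DEFA1, DEFA1B and DEFA3 are near-identical copies whose reads the counting can split or drop, so their separate values are uncertain. The lysosomal protease cathepsin D (CTSD) rose from 34.5 and 40.1 to 401 and 551 CPM (log2 fold change 3.72, edgeR, Benjamini-Hochberg adjusted p = 0.000325). The scatter of the responses in the 2 kinds of cell places these genes opposite CTSG, PRSS57 and MPO.

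**Figure D3:**
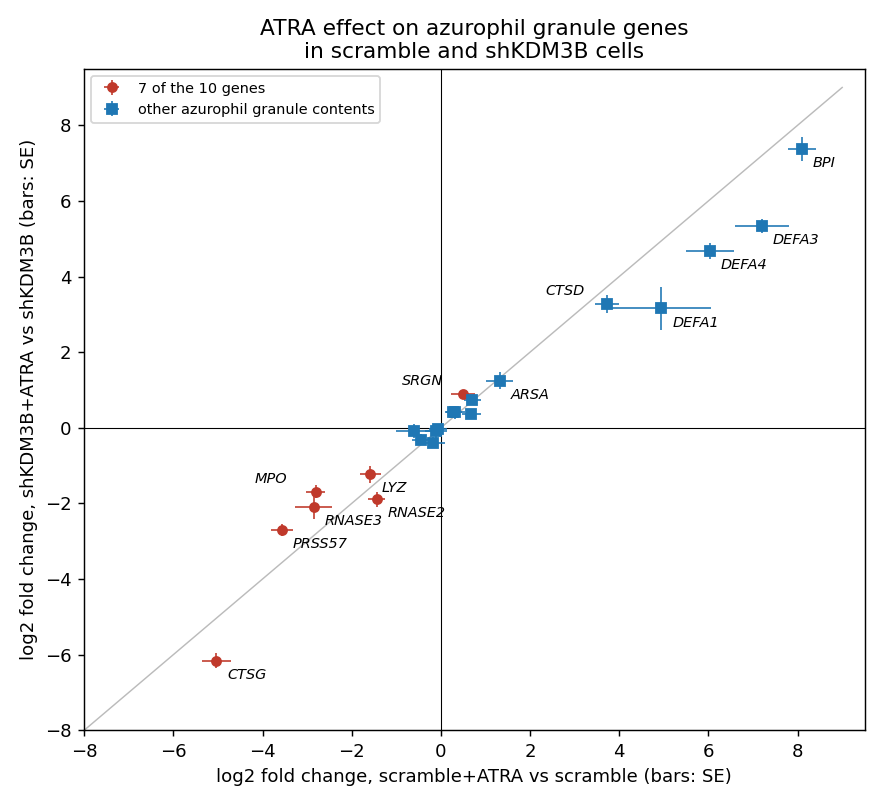
Log2 fold change with ATRA in scramble cells (horizontal axis) against that in shKDM3B cells (vertical axis), each from 2 libraries against 2 with bars for the standard error, for 7 of the 10 granule genes (red) and the other azurophil granule contents tested in both, with 1 left out (blue); the grey line marks equal change. BPI, DEFA3, DEFA4 and CTSD lie at the upper right, and CTSG (-5.04, -6.16) at the lower left.

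With knockdown few of the same contents were called. In untreated cells DEFA3 and DEFA4 were called higher and none lower of 14 tested, beside 3.48% higher and 3.53% lower over all genes (log2 1.30 and 1.08, edgeR, Benjamini-Hochberg adjusted p = 0.220 and 0.301), from 2.68 and 3.40 CPM of DEFA3 in shKDM3B. With knockdown under ATRA 1 of 17 was called higher and 2, FUCA1 and BPI, lower, at -2.12 and -0.59 (edgeR, Benjamini-Hochberg adjusted p = 0.502 for both), beside 2.42% and 4.37% over all genes. FUCA1 and BPI were too low to test in untreated cells, so they could not be called in both knockdown comparisons. No other member of this list was called in the same direction in both.

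Transcription factors of the promyelocyte granule programme were called in both directions with ATRA. In scramble, CEBPB, CEBPE and SPI1, which encodes PU.1, were called higher and CEBPA, MYB and GFI1 lower of 9 tested, beside 15.0% higher and 10.8% lower over all genes. CEBPE, the factor of the promyelocyte-to-myelocyte step, went from 50.8 and 74.8 to 421 and 333 CPM (log2 2.64, edgeR, Benjamini-Hochberg adjusted p = 0.00135). In shKDM3B the same 6 were called in the same direction, with CBFB higher in addition, beside 24.0% higher and 18.3% lower over all genes. Under knockdown MYB was the only factor of 9 called in untreated cells, beside 3.48% higher and 3.53% lower over all genes. It stood at 282 and 437 CPM in scramble and 640 and 566 in shKDM3B (log2 0.74, edgeR, Benjamini-Hochberg adjusted p = 0.247). With ATRA MYB was again called higher, 155 and 228 against 383 and 359 CPM, and CEBPB and CEBPD lower, CEBPB at 181 and 117 against 44.4 and 46.3 CPM (edgeR, Benjamini-Hochberg adjusted p = 0.502 each). These were calls among 9 tested, beside 2.42% higher and 4.37% lower over all genes. LEF1 was listed but too low to test.

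Genes that fold MPO and supply its haem were tested as well. None of the 11 was called with knockdown in either condition. Over all genes 3.48% were called higher and 3.53% lower in untreated cells, and 2.42% and 4.37% under ATRA. A list of 11 without a call is near those shares. With ATRA, ALAS1, which catalyses the first step of haem synthesis, was called higher and the chaperone calreticulin (CALR) lower in both kinds of cell. That is 1 higher and 1 lower of 11, beside 15.0% and 10.8% over all genes in scramble and 24.0% and 18.3% in shKDM3B. ALAS1 went from 106 and 103 to 771 and 678 CPM in scramble (log2 2.84) and CALR from 2959 and 4081 to 1106 and 1222 CPM (log2 -1.54, edgeR, Benjamini-Hochberg adjusted p = 0.000385 and 0.00471). CALR thus moved with MPO, and ALAS1 against it.

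Among 12 genes that activate or inhibit granule proteases, the activating protease cathepsin C (CTSC) was not called in any comparison, at 559 to 839 CPM in the 8 libraries. SERPINB1, the cytoplasmic inhibitor of the elastase-type proteases, went from 21.8 and 15.0 to 150 and 194 CPM with ATRA in scramble (log2 3.27, edgeR, Benjamini-Hochberg adjusted p = 0.000767), and cystatin F (CST7) from 23.5 and 30.6 to 0.423 and 0.183 CPM. In all, 3 were called higher and 2 lower of 9 in scramble, and 2 higher and 5 lower of 9 in shKDM3B, where all genes gave 15.0% and 10.8%, and 24.0% and 18.3%. RNH1, called lower in both, has all its 31-base runs on an alternate contig. With knockdown, SERPINA1 was called lower of 8 in untreated cells, and SERPINA1, SERPINB2 and CSTB lower of 7 with ATRA. The shares called lower over all genes were 3.53% and 4.37%. SERPINA1 has 93.5% of its 31-base runs on an alternate contig and had between 6 and 142 counts, so no change is drawn from it or from RNH1. Of 12 genes for granule formation and sorting, LYST was the only one called with knockdown. It was higher in untreated cells at 308 and 234 CPM against 97.0 and 139 (log2 1.19, edgeR, Benjamini-Hochberg adjusted p = 0.122). Over all genes 3.48% were called higher and 3.53% lower there, and 2.42% and 4.37% under ATRA. AP3S1 was called higher and GATA2 lower with ATRA in both kinds of cell. The shares over all genes were 15.0% and 10.8% in scramble and 24.0% and 18.3% in shKDM3B.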

How the data were processed

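RNA from 8 NB4 libraries was sequenced as read pairs; per the sources, the authors used Trim Galore for trimming, HISAT2 for alignment to hg38 and HTSeq for counting per gene, with a RefSeq annotation, although the gene names in the deposited files follow Ensembl. The submitters' processing notes also name Picard, SAMtools and DESeq2. The deposited values are raw counts per gene and library, 9708739 to 33017787 on genes, and HTSeq's summary rows (outside genes, not unique) were kept out of library sizes. The untreated files list 56470 names and the ATRA files 56609, and comparisons across them used the 37526 shared names.

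Counts were tested with edgeR 4.0.16 (R 4.3.3): TMM scaling, filterByExpr and the quasi-likelihood F test, with the 2 groups compared in each fit and all 8 libraries in the interaction, and Benjamini-Hochberg adjustment over all genes of a fit. Every fold change and p-value is from such a fit unless DESeq2 (1.42.0) is named. The gene-wise script was checked on simulated counts. The labels do not say that replicates came from separate cultures, so p-values measure only the spread between these libraries, and an exact permutation test of 2 against 2 cannot go below 0.333. CPM per kilobase used the union of GENCODE 44 exons on hg38, and a match on alternate contigs was any identical run of 31 bases. All 10 genes are named in every comparison; from each other list, counts and up to 3 called genes per direction are named, with transcription factors and neighbours freely and a few further genes after their values were seen. The genes and lists were chosen with earlier results of these data known. Alternatives covered scaling, filter, test, call rule, replicate number as a block and each library left out. The values of 1 gene of the lists are not reported here.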

Additional observations from a re-analysis of the deposited data

Results flagged for a closer look

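The difference between the ATRA responses of shKDM3B and scramble cells, tested as an interaction with edgeR, passed an unadjusted P under 0.05 for MPO (1.10 on the log2 scale), PRSS57 (0.84) and CTSG (-1.15). MPO and PRSS57 fell less and CTSG fell further in shKDM3B cells, and none had a Benjamini-Hochberg adjusted p under 0.05 (1.00 each).

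Reads outside annotated genes, which enter no comparison, made up 50.0% of the uniquely aligned pairs in the second scramble+ATRA library and 51.4% and 51.0% in the shKDM3B+ATRA libraries, above the 8.83% and 9.28% of the untreated scramble libraries. Their part in the granule gene results was not tested beyond leaving out each scramble+ATRA library.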

How the results depend on the processing

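Of 625 log2 fold changes of granule genes under the alternatives, 591 kept their direction and their side of the thresholds, 15 lost and 11 gained a call, and 8 changed sign. All 105 in shKDM3B+ATRA against shKDM3B kept both. Requiring a Benjamini-Hochberg adjusted p under 0.05 in edgeR left 0 genes called higher and 0 lower in both knockdown comparisons and in the interaction. A fit of all 8 libraries called 2 genes lower with knockdown under ATRA, CTSG in addition, and 3 higher, SRGN in addition; DESeq2 also called 3 higher, with SRGN. Leaving out a library gave 1 to 3 genes higher and 0 to 1 lower with knockdown in untreated cells, 1 to 5 higher and 1 to 2 lower with knockdown under ATRA, 0 to 1 higher and 6 to 7 lower with ATRA in scramble, and 2 to 3 higher and 0 to 1 lower in the interaction. The sign changes were in genes near zero or near the count floor: LYZ with knockdown under ATRA (0.05, range -0.15 to 0.24, and -0.06 without the first scramble+ATRA library), PRTN3 with knockdown (-0.71 to 3.49), with ATRA in scramble (-6.47 to 0.46) and in the interaction (-2.25 to 6.71, and -0.09 without the first scramble+ATRA library), and AZU1 in the interaction (-0.82 to 2.08, and -0.20 without the first shKDM3B+ATRA library). The cause was not tested.

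Over all genes, adjusted calls numbered 3 by edgeR and 278 by DESeq2 with knockdown in untreated cells, 0 and 464 under ATRA, and 0 and 25 in the interaction. Same-numbered libraries correlated in their deviations from the group means at 0.39, 0.03, -0.08 and 0.18 in the 4 comparisons, with only 2 pairs each, so the numbers were not taken as pairs. A fit with a replicate block called as many granule genes in each direction in every comparison, and 1277 genes, 4 of them granule genes, had an adjusted p under 0.05 with knockdown in untreated cells; under ATRA 179 genes were called higher and 346 lower, against 345 and 624 without the block. RNASE3 had 9 to 14 counts in the ATRA libraries, which limits the precision of its values.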

Other observations

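Genes of the later granule classes, the specific and gelatinase granules and the oxidase in their membrane, were called in both directions with ATRA. In scramble cells 5 of 9 tested were called higher and 2 lower, beside 15.0% and 10.8% over all genes. CYBB, the catalytic oxidase subunit, went from 335 and 317 to 1787 and 2006 CPM (log2 2.59, edgeR, Benjamini-Hochberg adjusted p = 0.000468), and the neutrophil collagenase MMP8 from 0.149 and 0.169 to 31.4 and 48.3 CPM. The gelatinase MMP9 fell, from 51.8 and 51.0 to 1.81 and 1.74 CPM (log2 -4.80, edgeR, Benjamini-Hochberg adjusted p = 0.000135). With knockdown, MMP9 and CYBB were called lower of 6 in untreated cells and MMP8, CAMP, CYBB and CYBA lower of 6 under ATRA, beside 3.53% and 4.37% over all genes, none with a Benjamini-Hochberg adjusted p under 0.05 in edgeR. In shKDM3B cells 3 of 5 were called higher and 1 lower with ATRA, beside 24.0% and 18.3% over all genes. Of the maturation markers TGM2, ITGAM and CD38, all 3 were called higher with ATRA in both kinds of cell, beside 15.0% and 24.0% over all genes. With knockdown, ITGAM was called lower of 2 tested in untreated cells, beside 3.53% over all genes (edgeR, Benjamini-Hochberg adjusted p = 0.239). Under ATRA, TGM2 and ITGAM were called lower of 3, beside 4.37% (edgeR, Benjamini-Hochberg adjusted p = 0.502 each). TGM2 stood at 5760 and 5098 CPM in scramble+ATRA and 2283 and 2528 in shKDM3B+ATRA, while CD38, not called, stood at 453 and 456 against 437 and 546 CPM.

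Of the neighbours of the chromosome 19 protease cluster, 0 of 8 tested were called with knockdown in untreated cells in edgeR and 1 of 7 under ATRA, R3HDM4 (lower, log2 -0.62). Over all genes 3.48% were called higher and 3.53% lower in untreated cells, and 2.42% and 4.37% under ATRA. PLPPR3 and PALM were called lower with ATRA in scramble (log2 -2.20 and -1.72), and in shKDM3B cells both were called lower with MED16, which has 49.8% of its 31-base runs on alternate contigs. Each count is of 8 tested, beside 10.8% and 18.3% called lower over all genes. Of 9 tested neighbours of the other granule genes, RNASE6, TSPOAP1 and EPX were called lower with knockdown in untreated cells, beside 3.53% over all genes. Their Benjamini-Hochberg adjusted p-values by edgeR were 0.215, 0.130 and 0.227, and RNASE6 had 19 and 16 counts in scramble and 4 and 4 in shKDM3B. With ATRA in scramble EPX was called lower of 9, from 144 and 284 to 13.6 and 12.5 CPM, beside 10.8% over all genes. With knockdown under ATRA none of 9 tested was called, beside 2.42% higher and 4.37% lower over all genes. With ATRA in shKDM3B cells LPO (log2 7.88), TSPOAP1 (1.00) and TSPOAP1-AS1 (1.28) were called higher and EPX lower (-4.56) of 9 tested. The shares over all genes were 24.0% and 18.3%.

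The genes whose log2(CPM + 1) followed MPO most closely over the 8 libraries, among 8716 with a mean of at least 10 CPM, were NEMP1 (Pearson r = 0.992), INSR (0.991), XPOT (0.990), RET (0.988) and LRRC37B (0.987). INSR averaged 56.0, 79.8, 11.9 and 30.1 CPM in scramble, shKDM3B, scramble+ATRA and shKDM3B+ATRA, the order of MPO. For the mean of the 10 genes they were CEP68 (0.991), USP49 (0.990), HOXD13 (0.989), ZNF550 (0.982) and TULP4 (0.980), and for the mean of the 7 genes other than ELANE, PRTN3 and AZU1, a set added after the data were seen, SLC16A1 (0.994), FAM46C (0.994), HSPA4 (0.994), SUPV3L1 (0.993) and MMP2 (0.993). The 8 points are 4 pairs of libraries, so these values mainly describe the order of the group means.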
